A study of Mus musculus with 9 samples.

Results

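The 10 genes described here, Fgf8, Fgf4, Sp8, Sp9, Dlx5, Dlx6, Trp63, En1, Wnt7a and Lmx1b, act in the ectoderm that covers the limb bud and in its dorsoventral axis, and were chosen by name from the 21851 protein-coding genes of the annotation. Their surroundings were examined in lists of regions enriched for H3K27ac, acetylation of lysine 27 on histone H3, a mark carried by active promoters and enhancers. The lists came from MicroChIP-seq, a ChIP-seq protocol for small amounts of chromatin, on whole mouse forelimb buds at E10.5 (embryonic day) with 33 to 34 somites. Wild-type (WT) buds were set beside buds without the signal Sonic hedgehog (Shh-/-) and buds without both this signal and the transcription factor Gli3 (Shh-/-;Gli3-/-). Both mutations were constitutive null alleles (Shh tm1amc and Gli3 Xt-J) carried in every cell, on a background that the sample labels call mixed and the methods of the study call Swiss Webster for both alleles. The WT buds were from littermates, and each ChIP used a pair of forelimb buds from an embryo. Each genotype had 2 H3K27ac libraries and 1 input library, and is represented by 1 peak list, with 25096 peaks in WT, 32085 in Shh-/- and 34641 in Shh-/-;Gli3-/- buds. Because the lists hold no value for a replicate, the differences below are differences between 3 lists without an estimate of replicate spread, and no test was possible.

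The apical ectodermal ridge is a thickened strip of ectoderm at the distal edge of the bud that keeps the mesenchyme beneath it growing by secreting fibroblast growth factors. Sonic hedgehog from the posterior mesenchyme maintains the ridge factors, and Gli3 is processed into a repressor of hedgehog target genes where that signal is absent. The dorsoventral axis is set by the ectoderm outside the ridge, where En1 on the ventral side keeps the dorsal signal Wnt7a off, and Wnt7a induces the LIM-homeodomain factor Lmx1b in the dorsal mesenchyme.

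Of the 10 genes, only Lmx1b, the only one of them that acts mainly in mesenchyme, had an acetylated promoter in all 3 lists, and its promoter peaks were part of a broad acetylated domain. The Shh-/- list also held a small peak at the start of Dlx5, and no list held a promoter peak at the other 8 genes. The number of genes with a promoter peak, that is a peak overlapping the stretch from 2 kb before to 1 kb after a protein-coding transcript start, was therefore 1 of 10 in WT, 2 of 10 in Shh-/- and 1 of 10 in Shh-/-;Gli3-/- buds. Among all protein-coding genes the share was 44.3% in WT, 48.3% in Shh-/- and 46.3% in Shh-/-;Gli3-/- buds. Distal peaks, those outside every such promoter window, were counted in a window of the gene span plus 50 kb on each side. At least 1 distal peak lay in the windows of 2 of 10 genes in WT (Sp8 and Lmx1b), 4 of 10 in Shh-/- (Sp8, Trp63, Wnt7a and Lmx1b) and 2 of 10 in Shh-/-;Gli3-/- buds (Wnt7a and Lmx1b). The background shares were 38.0%, 40.6% and 39.2%, so the genes were near or below the background for distal peaks and below it for promoter peaks. In whole buds, few ectodermal cells and little acetylation in each of them cannot be told apart. Markers of ectoderm, described further on, had promoter peaks in 0, 0 and 1 of 15 cases, and the part of the ectoderm's share of the cells in these results was not tested.

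Over all windows, with the overlapping windows of Dlx5 and Dlx6 counted once, there were 21 distal peaks in WT, 19 in Shh-/- and 25 in Shh-/-;Gli3-/- buds, and peaks of any kind covered 15.5 kb, 18.5 kb and 24.2 kb. Lmx1b held most of this, with 20, 15 and 24 of the distal peaks and 12.25, 14.55 and 20.3 kb of the covered length. Without Lmx1b, the distal peaks numbered 1, 4 and 1, and the covered length was 3.24 kb, 3.99 kb and 3.89 kb, most of it at the promoters of unrelated neighbours. The plot of covered length by gene shows this contrast.

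**Figure D1:**
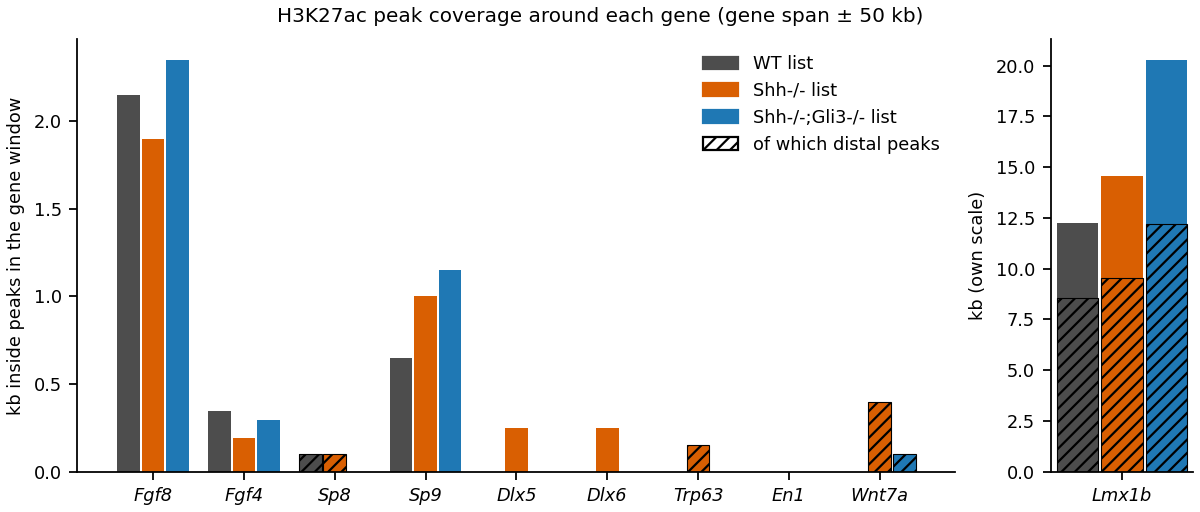
Length in kb (vertical axis) inside H3K27ac peaks of each list in the window of each gene, with the length in distal peaks hatched. The bars of Lmx1b, on a scale of their own, reach 12.25, 14.55 and 20.3 kb, the bars of Fgf8 and Sp9 hold no distal peak, and En1 has no bar.

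Fgf8 is the fibroblast growth factor made along the whole ridge. Its span (mm10, chr19:45736798-45742915, minus strand) held no peak in any list, and no distal peak lay in its window. The peaks in its window, 3 in WT, 4 in Shh-/- and 3 in Shh-/-;Gli3-/- buds, all lay at promoters of Npm3, a histone chaperone, and Mgea5, the enzyme that removes O-GlcNAc from proteins. The nearest of these was 5.99 kb upstream of the Fgf8 start in all 3 lists. At the Mgea5 promoter the enrichment was among the highest of each list, at fold percentile 94.6 in WT, 97.3 in Shh-/- and 99.9 in Shh-/-;Gli3-/- buds. The fold percentile of a peak is the share of the peaks in the same list whose largest log2 fold over input is lower, and it is used here because each list was made against its own input. The covered length in the Fgf8 window, 2.15, 1.9 and 2.35 kb, thus lay wholly at neighbouring promoters.

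Enhancers of Fgf8 that act in the ridge are known to lie within the neighbouring gene Fbxw4, which encodes an F-box protein. Fbxw4 (chr19:45578254-45660312) ends 76.5 kb from Fgf8, so it lies outside the window by 26.5 kb and was examined separately. Each list held 1 peak in the 82.1 kb of Fbxw4, and in each it was the peak at the Fbxw4 promoter, of 1100 bp in WT, 1100 bp in Shh-/- and 1050 bp in Shh-/-;Gli3-/- buds. None of these lists held a distal peak inside Fbxw4. The distal peak nearest to Fgf8 was 94.6 kb away in WT, on the side opposite to Fbxw4, and 261 kb and 299 kb away in Shh-/- and Shh-/-;Gli3-/- buds.

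Fgf4 is the growth factor made in the posterior ridge, under the influence of Sonic hedgehog. Its annotated span (chr7:144847367-144865243, plus strand) held no peak in any list. The only peaks in its window were those at the promoter of LTO1, which reach across the far edge of the window, from 49.4 to 50.5 kb past the gene, and the window covered 0.344, 0.194 and 0.294 kb of them in the WT, Shh-/- and Shh-/-;Gli3-/- lists. The nearest distal peak was 72.7, 59.4 and 77.1 kb from Fgf4 in the WT, Shh-/- and Shh-/-;Gli3-/- lists. Both growth factors of the ridge were thus without a peak of their own, in WT as in both mutants.

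Sp8 and Sp9 encode related zinc-finger transcription factors of the ridge, of which Sp8 is needed for the ridge to form and to express Fgf8. Sp8 (chr12:118846329-118852576, plus strand) had no promoter peak and a distal peak of 100 bp, the smallest width in the lists, starting 8.77 kb past its start and 2.52 kb past its end. The peak had the same borders, chr12:118855100-118855199, in WT and Shh-/- buds, with a largest log2 fold of 2.25 at FDR 0.211 in WT and of 2.34 at FDR 0.154 in Shh-/- buds. These values put it near the bottom of each list, at fold percentiles 14.1 and 6.79. In Shh-/-;Gli3-/- buds it was not listed, and the nearest peak of any kind was 249 kb from Sp8. Its sequence is shown because presence differed between the lists. It is given on the plus strand of mm10, with the 50 bases around the largest statistic in the WT list in capitals.
Sp8 chr12:118855100-118855199: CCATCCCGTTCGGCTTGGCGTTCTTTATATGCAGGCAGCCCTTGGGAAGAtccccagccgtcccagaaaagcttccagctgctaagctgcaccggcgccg
It held 7 CpG dinucleotides in 100 bases, and the 300 bases around the largest statistic held 19, against a median of 4 in all distal peaks of the WT list.

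Sp9 (chr2:73271925-73284706, plus strand) had no promoter peak and no distal peak in its window. The peaks there, 2 in WT, 3 in Shh-/- and 1 in Shh-/-;Gli3-/- buds, all lay between 27.3 and 28.6 kb past the gene at the facing promoters of Cir1 and Scrn3. The covered length was 0.65 kb, 1 kb and 1.15 kb, and the single peak of the Shh-/-;Gli3-/- list spanned most of the stretch that was split into separate peaks in the other lists. Neither Sp gene therefore had a promoter peak, and Sp8 had the only distal peak of the pair.

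Dlx5 and Dlx6 are neighbouring homeobox genes of the ridge and of skeletal precursors, transcribed towards each other, whose combined loss in mice gives split feet. The WT and Shh-/-;Gli3-/- lists held no peak in either window. The Shh-/- list held 1 peak, chr6:6881450-6881699, which lay 386 to 635 bp past the start of Dlx5 and overlapped 168 bp of the coding part of its exon 1. It was 250 bp wide with a largest log2 fold of 2.80, at fold percentile 44.7 and FDR 0.0135. For Dlx6 this peak was 18.1 kb downstream of the start and counted in neither its promoter nor its distal peaks. In WT and Shh-/-;Gli3-/- buds the nearest peak of any kind was 74.1 and 74.0 kb from Dlx5.

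Trp63 encodes p63, the transcription factor on which stratified ectoderm and the ridge depend. Across its span of 208 kb (chr16:25683763-25892102, plus strand) and the flanks, neither the WT nor the Shh-/-;Gli3-/- list held a peak. The Shh-/- list held 1 distal peak, chr16:25877050-25877199, with a largest log2 fold of 2.68 at fold percentile 36.0 and FDR 0.0265. It lay 193 kb past the first start, and 95 of its 150 bp were in an untranslated part of exon 9 or 11 of 2 transcripts, with the rest in an intron. In the other lists the nearest peak was 150 kb (WT) and 149 kb (Shh-/-;Gli3-/-) from the gene.

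En1, the homeobox gene of the ventral ectoderm, was the only gene of the 10 without a peak of any kind in its window in all 3 lists (chr1:120602418-120607992, plus strand). The nearest peak to En1 was 481 kb away in WT and 107 kb away in both mutants. Wnt7a, the dorsal ectodermal signal that En1 represses (chr6:91363981-91411363, minus strand), had no promoter peak in any list and no peak in its window in WT. In Shh-/- buds 2 distal peaks lay upstream of its start, at 29.2 kb with a largest log2 fold of 2.57 (FDR 0.0588) and at 29.6 kb with a largest log2 fold of 2.72 (FDR 0.0192). The Shh-/-;Gli3-/- list held a peak of 100 bp inside the second of these regions, with a largest log2 fold of 1.999 at fold percentile 0.606 and FDR 0.105. Both positions overlapped exons of noncoding transcripts (4930471M09Rik and 1810044D09Rik), so the assignment to Wnt7a rests on distance alone. The region present in both mutants and absent from the WT list is printed on the plus strand of mm10, with the 50 bases around the largest statistic of the Shh-/- peak in capitals.
Wnt7a upstream chr6:91440950-91441199: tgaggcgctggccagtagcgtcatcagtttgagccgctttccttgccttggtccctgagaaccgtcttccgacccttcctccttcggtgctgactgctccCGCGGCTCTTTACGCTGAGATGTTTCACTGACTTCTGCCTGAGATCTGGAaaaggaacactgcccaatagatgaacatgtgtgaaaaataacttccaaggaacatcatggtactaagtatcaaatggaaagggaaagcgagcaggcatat
It held 10 CpG dinucleotides and none of the motif letters described further on.

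The map of the 9 genes other than Lmx1b shows how few of their peaks lay at the genes themselves.

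**Figure D2:**
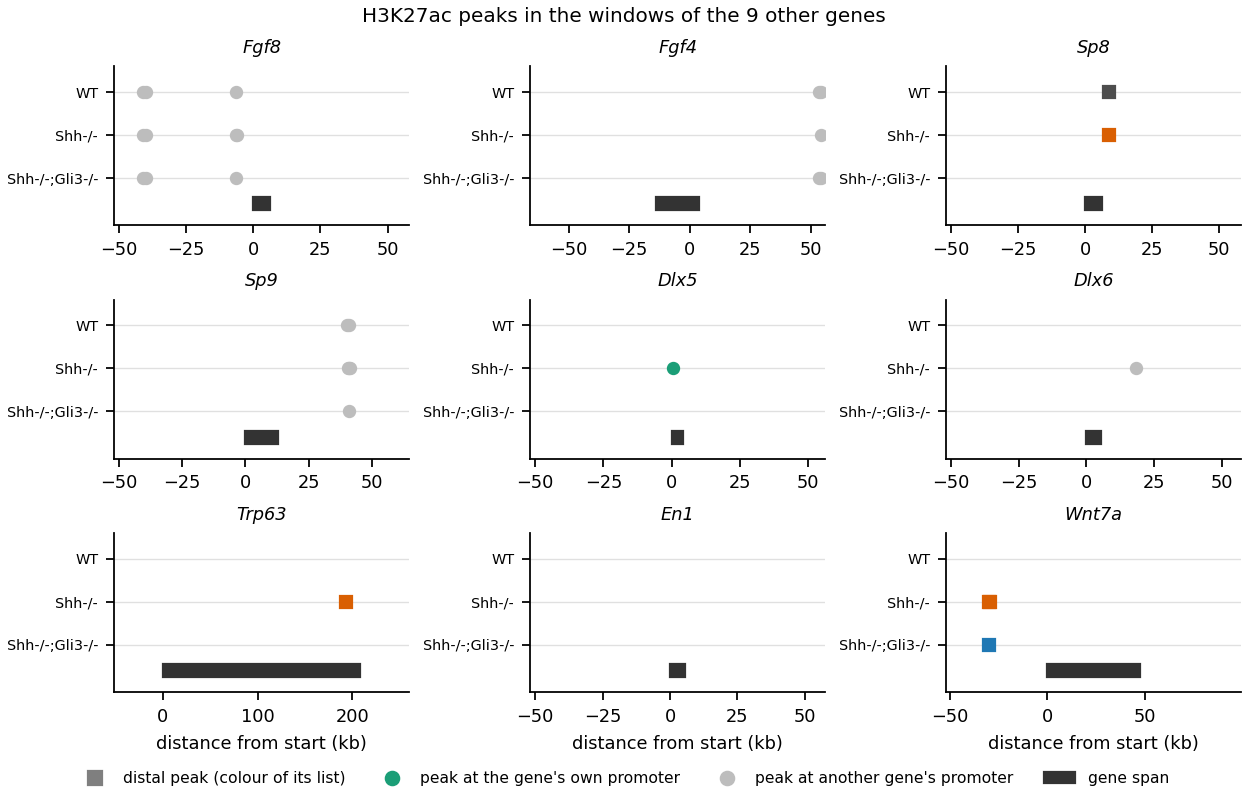
Positions of H3K27ac peaks (centres, kb from the first protein-coding start, negative values upstream) in the windows of 9 genes, with a row for each list and the gene span as a dark bar. Circles in grey are peaks at promoters of other genes, the only circle in green is the Shh-/- peak at Dlx5, and squares are distal peaks, seen at Sp8, Trp63 and Wnt7a.

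Lmx1b (chr2:33560965-33640511, minus strand) was acetylated from its promoter into its first introns and upstream in every list. The WT list held 22 peaks in its window, the Shh-/- list 17 and the Shh-/-;Gli3-/- list 25, covering 12.25, 14.55 and 20.3 kb. Of the distal peaks among them, 7 of 20, 3 of 15 and 1 of 24 overlapped exons of C130021I20Rik, just upstream of the Lmx1b promoter. Of all peaks in the window, 11 of 22, 15 of 17 and 22 of 25 had an FDR below 0.05, so the WT count was then the lowest. The covered lengths placed Lmx1b at percentile 99.5, 99.7 and 99.7 among all protein-coding genes. This ranking was not adjusted for the length of the window, which grows with the gene span and was 179.5 kb for Lmx1b. The covered length was 1.19 times that of WT in Shh-/- and 1.66 times in Shh-/-;Gli3-/- buds. The whole lists differed to a similar degree, covering 1.25 and 1.66 times the bases of the WT list, so the larger coverage at Lmx1b was about that of the lists as a whole. The median of the largest log2 folds of its peaks was 2.52, 3.23 and 2.52, relative to the input of each genotype.

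The strongest peak of the domain in each list met the promoter window of Lmx1b. In Shh-/-;Gli3-/- buds, however, the largest statistic of that peak lay inside the gene, just past the promoter window (chr2:33639325). In WT buds a peak of 1300 bp (chr2:33638700-33639999) and one of 2400 bp (chr2:33640200-33642599) met the promoter window, with a largest log2 fold of 3.92 and 4.05 at fold percentiles 87.1 and 89.1. In Shh-/- buds the peaks were 2650 bp (chr2:33638100-33640749) and 2350 bp (chr2:33640850-33643199) wide, with a largest log2 fold of 3.74 and 4.37 at fold percentiles 80.5 and 91.5. In Shh-/-;Gli3-/- buds a single peak of 8100 bp (chr2:33638000-33646099) spanned the promoter, with a largest log2 fold of 5.08 at fold percentile 96.3. By width it stood at rank 7 of 34641 peaks, while the widest promoter peak had rank 179 in WT and rank 105 in Shh-/- buds. Much of the difference was in how the domain was divided into peaks. In the stretch from 12 kb inside the gene to 7 kb upstream of its start, 18 WT peaks covered 61.8%, 15 Shh-/- peaks covered 73.7% and 8 Shh-/-;Gli3-/- peaks covered 81.0%. The promoter window itself was covered to 93.3%, 96.7% and 100%.

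The promoter sequence of RefSeq, 250 bases before and 50 bases after its start of Lmx1b, lay wholly inside peaks of all 3 lists and is shown because it is the only promoter of the 10 genes acetylated throughout. RefSeq places this start upstream of the GENCODE one, which coincides with the first codon. The sequence is given 5′ to 3′ on the minus strand of GRCm38.p6, the assembly that mm10 names, with the 50 bases from the start onward in capitals.
Lmx1b promoter chr2:33641049-33641348: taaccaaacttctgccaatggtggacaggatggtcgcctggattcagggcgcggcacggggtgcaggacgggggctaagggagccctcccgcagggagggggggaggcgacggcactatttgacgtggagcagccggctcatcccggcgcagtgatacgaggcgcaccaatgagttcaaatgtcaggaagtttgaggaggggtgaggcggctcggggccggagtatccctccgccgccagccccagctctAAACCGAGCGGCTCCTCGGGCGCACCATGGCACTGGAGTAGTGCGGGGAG
It was 65.7% G and C and held 24 CpG dinucleotides, against a median of 52.7% and 7 over the 32851 promoters of the same length. RefSeq promoters were matched for 6 of the 10 genes. Those of En1, Sp9, Wnt7a and Fgf4 held 23, 25, 42 and 28 CpG dinucleotides, and the 3 entries of Sp8, at different starts, held 2, 32 and 10. None of the bases of these promoters was inside a peak of any list.

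Most of the genes without promoter acetylation thus had CpG-rich starts. Within 500 bp of the start, 8 of the 10 genes, all but Sp8 and Trp63, met the usual criteria of a CpG-rich promoter, at least 50% G and C and an observed-to-expected CpG ratio of at least 0.6. Of the 10043 CpG-rich promoters of all protein-coding genes, 76.8% had a peak in WT, 81.7% in Shh-/- and 79.4% in Shh-/-;Gli3-/- buds. Of the 8 described here, 1, 2 and 1 did. Fgf8, with 73.5% G and C and a ratio of 0.789, and Wnt7a, with 68.3% and 0.813, had values near those of Lmx1b, with 70.5% and 0.837.

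The widest intronic stretches of the Lmx1b domain, within 12 kb of the start, were shared by all 3 lists, while narrower ones there were not. Farther from the start but inside the window, peaks were mostly those of Shh-/-;Gli3-/- buds. Overlapping peaks of the lists were joined into regions, of which 28 distal ones lay in the Lmx1b window. A region was distal only if none of its peaks met a promoter window. The shared region around the promoter (chr2:33637850-33646249), with 10 WT, 5 Shh-/- and 1 Shh-/-;Gli3-/- peaks, was thus left out, along with distal peaks joined to it. Peaks that touched without overlap stayed separate, so sharing may be undercounted. The same rules applied to the whole lists. Of these, 4 held peaks of all 3 lists and 16 (57.1%) held peaks of the Shh-/-;Gli3-/- list alone, against 39.3% of the 34560 distal regions of the genome. Regions of the WT list alone numbered 2, and so did those of the Shh-/- list alone. The strongest shared distal region was intronic, 7.36 to 11.3 kb past the start (chr2:33629200-33633149). It was split into 3 peaks in WT, 2 in Shh-/- and was a single peak of 3950 bp in Shh-/-;Gli3-/- buds. The largest log2 fold was 3.26, 3.94 and 4.41, each against the input of its genotype, at fold percentiles 73.1, 84.6 and 90.9.

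Farther into the gene, a region 54.9 to 55.7 kb past the start was listed in every genotype. Its WT peak, chr2:33584850-33584999, had a largest log2 fold of 2.45 at fold percentile 31.8 and FDR 0.0807, the Shh-/- peak one of 3.60 at fold percentile 77.1, and the higher of its Shh-/-;Gli3-/- peaks one of 2.73 at fold percentile 53.2. By fold percentile it stood highest in Shh-/- buds. The WT peak is printed on the plus strand of mm10 because it holds the letters CTTTGAT, bound by TCF/LEF factors of the Wnt pathway, here on the minus strand and therefore in capitals as ATCAAAG. It was selected after its letters had been found.
Lmx1b intron chr2:33584850-33584999: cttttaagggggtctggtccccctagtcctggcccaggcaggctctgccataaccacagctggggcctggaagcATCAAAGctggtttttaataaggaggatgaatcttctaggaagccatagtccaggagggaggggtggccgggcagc
The same letters also lay in the 300 bases around the largest statistic of the Shh-/-;Gli3-/- peak chr2:33584900-33585149, but not in those of the Shh-/- peak.

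Past the 3′ end of Lmx1b, the 50 kb flank was empty in WT and Shh-/- buds and held 3 peaks over 1.75 kb in Shh-/-;Gli3-/- buds, 15.7 to 17.8 kb beyond the gene. The 2 stronger ones, chr2:33543700-33544349 and chr2:33544500-33545249, had a largest log2 fold of 3.76 and 3.71, at fold percentiles 82.4 and 81.3. A further peak seen in this list alone, in an intron 34.5 kb past the start (chr2:33605750-33606199), had a largest log2 fold of 3.52 at fold percentile 77.9. The 300 bases around the largest statistic of each of the 2 stronger peaks are given on the plus strand of mm10, with the central 50 bases in capitals.
Lmx1b downstream chr2:33543925-33544224: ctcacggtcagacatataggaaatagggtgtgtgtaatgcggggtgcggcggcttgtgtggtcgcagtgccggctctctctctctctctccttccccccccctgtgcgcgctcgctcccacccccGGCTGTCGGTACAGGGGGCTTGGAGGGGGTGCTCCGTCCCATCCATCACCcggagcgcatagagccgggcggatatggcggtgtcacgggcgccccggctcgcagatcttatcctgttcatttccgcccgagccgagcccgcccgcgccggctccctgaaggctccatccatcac
Lmx1b downstream chr2:33544675-33544974: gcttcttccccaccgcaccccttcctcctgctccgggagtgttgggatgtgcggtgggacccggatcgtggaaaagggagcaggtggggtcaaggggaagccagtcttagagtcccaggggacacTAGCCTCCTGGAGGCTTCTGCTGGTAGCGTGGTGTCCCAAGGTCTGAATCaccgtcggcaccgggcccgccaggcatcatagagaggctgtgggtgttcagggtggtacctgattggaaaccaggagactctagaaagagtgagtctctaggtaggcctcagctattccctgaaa
The first was rich in CpG, with 28 dinucleotides, which was percentile 98.4 among the distal peaks of the list, and the second held 10. The median was 3 over all distal peaks of the list.

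Beyond the window, from 59.3 to 79.7 kb upstream of Lmx1b, all 3 lists held a further cluster of distal peaks. In each list part of the cluster overlapped an exon of 9430024E24Rik, so its assignment to Lmx1b rests on distance alone. Enhancers of Lmx1b in the dorsal limb mesenchyme are known upstream of the gene, and whether they coincide with these peaks was not analysed here. The WT list held 18 peaks there that covered 7.6 kb, with the strongest, chr2:33706400-33708049, at a largest log2 fold of 3.94 and fold percentile 87.5. The Shh-/- list held 17 peaks that covered 7.1 kb, with a highest log2 fold of 3.98 at fold percentile 85.2. The Shh-/-;Gli3-/- list held 8 peaks that covered 16.25 kb, with a highest log2 fold of 4.80 at fold percentile 94.5 and the widest peak, of 6050 bp, at rank 26 of the list by width. An FDR below 0.05 was reached by 11 of the 18 WT, 13 of the 17 Shh-/- and 6 of the 8 Shh-/-;Gli3-/- peaks. Coverage of this cluster was 0.934 times that of WT in Shh-/- and 2.14 times in Shh-/-;Gli3-/- buds, beside 1.66 times for the whole Shh-/-;Gli3-/- list. Single windows varied widely around that list-wide ratio. From WT to Shh-/-;Gli3-/- buds, coverage was 2.75 and 10.1 kb at Fgf10 but 2.7 and 1.95 kb at Msx2. The larger ratio is therefore not shown to be particular to Lmx1b, and this cluster was not part of the planned results. With each list cut to its 25096 highest-scoring peaks, an alternative chosen after seeing the data, the cluster covered 7.6, 6.8 and 15.95 kb. Genes other than Lmx1b had at most 4 distal peaks between 50 and 100 kb from their span in any list.

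**Figure D3:**
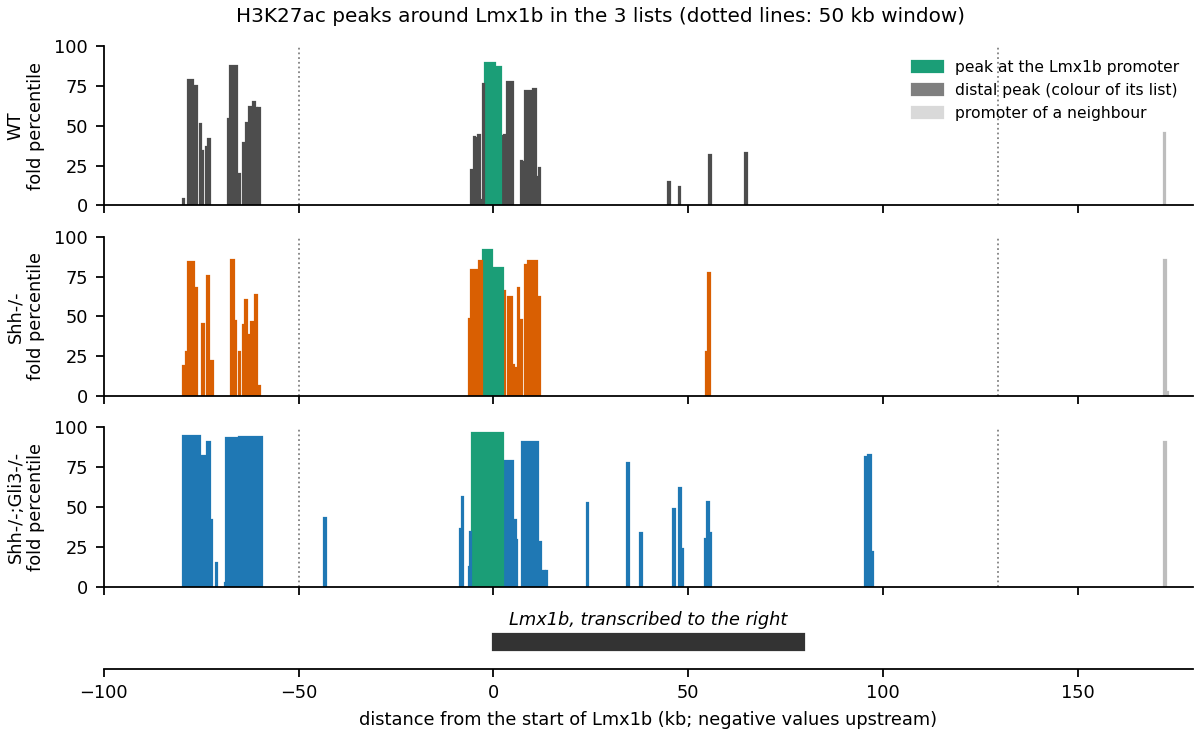
H3K27ac peaks around Lmx1b, with the distance from its start in kb on the horizontal axis (negative values upstream) and the fold percentile of each peak within its list as its height, drawn to width with a minimum of 0.4 kb. The promoter domain and the cluster 59.3 to 79.7 kb upstream appear in all 3 lists, and the peaks past the 3′ end of the gene, centred 95.6 to 97.2 kb from the start, only in the Shh-/-;Gli3-/- list.

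Over all windows, coverage was larger in the mutant lists at some genes and smaller at others. In Shh-/- buds it was larger than in WT at 6 of 10 genes (Sp9, Dlx5, Dlx6, Trp63, Wnt7a and Lmx1b), where Dlx5 and Dlx6 share the peak, smaller at Fgf8 and Fgf4 and equal at Sp8 and En1. Of all protein-coding genes, 54.8% were covered more in Shh-/- than in WT buds. In Shh-/-;Gli3-/- buds it was larger at 4 of 10 genes (Fgf8, Sp9, Wnt7a and Lmx1b), against 63.5% of all genes, smaller at Fgf4 and Sp8 and equal, at 0, at the other 4. Both comparisons share the WT list. At Fgf8, Fgf4 and Sp9 the covered bases were those of other genes' promoters.

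Letters bound by transcription factors were searched on both strands in the 300 bases around the largest statistic of each distal peak. Wider peaks were therefore searched only in part, and the search reached past the borders of narrower ones. The GLI letters GACCACCCA, and their relaxed form GACCNCCCA, which includes them, occurred in 0 of 21 distal peaks in WT, 0 of 19 in Shh-/- and 0 of 25 in Shh-/-;Gli3-/- buds. The relaxed form occurred in only 1.02%, 0.831% and 0.783% of all distal peaks of the lists, so a count of 0 was near the background share. CTTTGAT occurred in 3 of 21, 0 of 19 and 1 of 25 distal peaks, all of them at Lmx1b, against 4.39%, 4.37% and 4.74% of all distal peaks. TAATTA, the core of many homeodomain sites, occurred in the bases searched for 0, 0 and 2 peaks, both at Lmx1b, against 5.39%, 5.86% and 9.12%. For 1 of the 2, chr2:33646300-33646499, the letters lay just outside the border of the peak. These matches are letters in a window and do not show binding.

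Markers of the tissues of the bud were examined in the same way. Of 15 markers of ectoderm, such as Epcam, Cdh1 and the keratins Krt5 and Krt14, 0 had a promoter peak in WT, 0 in Shh-/- and 1 (Grhl2) in Shh-/-;Gli3-/- buds. Of 12 markers of limb mesenchyme, such as Prrx1 and Twist1, 11, 12 and 12 had one. The shares over all protein-coding genes were 44.3%, 48.3% and 46.3%. The covered length in the windows of the ectoderm markers had a median of 0.55, 0.55 and 0.45 kb. Over all protein-coding genes the median was 0.85, 1.1 and 1.25 kb, and in the windows of the mesenchyme markers 8.45, 11.8 and 15.7 kb. The ectoderm windows ranged from 0 to 8.15, 9.84 and 9.55 kb. These maxima were at Rab25, Cldn7 and Rab25, which had no promoter peak of their own. Of markers of endothelium (8 genes), blood (7), muscle precursors (5) and Schwann and neural crest cells (4), none had a promoter peak in WT, and 0, 2, 0 and 0 had one in Shh-/- and 1, 2, 2 and 0 in Shh-/-;Gli3-/- buds.

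Other genes of the ridge and ectoderm were examined as a list of 26. Of these 26, 6 had a promoter peak in WT, 11 in Shh-/- and 8 in Shh-/-;Gli3-/- buds, and 15 had none in any list. The shares of all protein-coding genes were 44.3%, 48.3% and 46.3%. The list was below them in WT and Shh-/-;Gli3-/- buds and near the share in Shh-/- buds. The 6 seen in WT had one in all 3 lists. They were Tfap2a and Tfap2c, which encode AP-2 transcription factors of the ectoderm, Gja1, which encodes the gap junction protein connexin 43, Bmp7, a bone morphogenetic protein, and Msx1 and Msx2, homeobox genes that the mesenchyme beneath the ridge also expresses. Tfap2a had 5, 8 and 4 promoter peaks and Tfap2c 3, 2 and 3. Which cells of the whole buds carried this acetylation was not tested. Of 15 genes of the mesenchyme that receive or answer the ridge signals, 15, 14 and 15 had a promoter peak. Msx1 stands in this list, in the ridge and ectoderm list and among the mesenchyme markers, so these lists are not separate. Among the mesenchymal genes, and named after their values had been seen, were Fgf10, the mesenchymal growth factor that sustains the ridge, and Dusp6, a phosphatase induced by fibroblast growth factors.

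**Figure D4:**
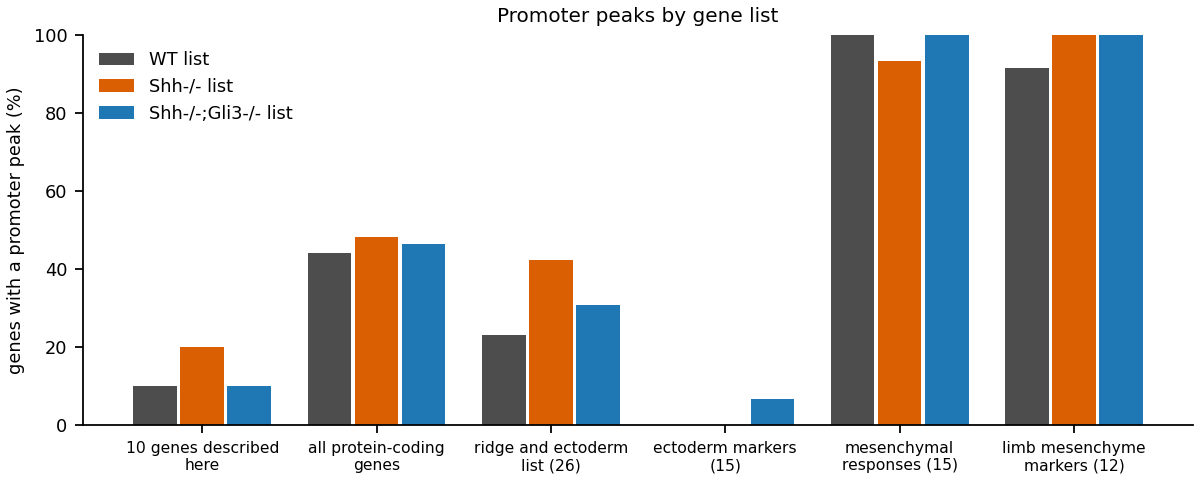
Share of genes (%, vertical axis) with a promoter peak in each of the 3 lists, for the 10 genes, all protein-coding genes and 4 lists of genes. The 10 genes and the ectoderm markers are below the share of all protein-coding genes in every list, and the mesenchymal lists are above it.

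Fgf10 had promoter peaks in every list, and its window held 4 distal peaks in WT, 7 in Shh-/- and 22 in Shh-/-;Gli3-/- buds. Dusp6 had 2 promoter peaks in each list and 10, 15 and 11 distal peaks. Both were thus acetylated in lists that held no promoter peak at Fgf8 or Fgf4.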

How the data were processed

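H3K27ac MicroChIP-seq libraries of E10.5 forelimb buds (2 per genotype, with 1 input each) were represented by 1 deposited peak list per genotype. The authors aligned reads to mm10, with Bowtie2 2.2.5 named in the submitters' processing notes, and called peaks with CisGenome. The study states a minimum depth for all libraries and that peaks were called from both replicates. The depth of each library and how the replicates were combined are not given in the sources used here, and the lists hold no read counts, so no interval for depth is given. In the deposited lists each peak has borders in steps of 50 bp, a score (the largest statistic), the largest log2 fold over input, an FDR as a fraction and a −log10 p-value, the last not used here. The score is at least 3.00 in every list, and the highest FDR was 0.350 in WT, 0.186 in Shh-/- and 0.109 in Shh-/-;Gli3-/- buds. The study describes its called peaks as having an FDR below 0.05, so the lists used here also hold peaks above that cutoff.

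Peaks were placed on GENCODE M21 (GRCm38, the build of the lists) with Python 3.11.15, pandas 2.3.3 and numpy 2.4.6. A peak was assigned by an overlap of at least 1 bp. The sample titles gave the genotypes. A genotype field with the same entry for every sample was not used. All 10 genes were named, with up to 3 distal regions each by fold percentile and any within Fbxw4. Outside this rule, intronic Lmx1b regions 34.5 kb and 54.9 to 55.7 kb past the start were also named. A region at a higher fold percentile than these (chr2:33635250-33637849, 78.7), with peaks in all 3 lists, was not described. Sequences were taken from distal regions named by the rule whose presence differed between lists, from the RefSeq promoter table (GRCm38.p6), and from 1 intronic peak chosen for its letters. The members and gene lists were chosen with earlier results of these data known. The counting steps were tested on simulated data. The promoter window, the gene window, the FDR, the number of peaks kept and the merging of nearby peaks were varied.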

Additional observations from a re-analysis of the deposited data

How the results depend on the processing

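No paired analysis was possible because the lists give no values for single replicates, and for the same reason no replicate could be left out. Values are given in the order WT, Shh-/-, Shh-/-;Gli3-/-. The number of genes with a promoter peak was 1, 2 and 1 under every alternative but FDR below 0.01, where the Shh-/- value was 1, without Dlx5. Genes with a distal peak numbered 1, 3 and 1 at FDR below 0.05, 1, 1 and 1 at FDR below 0.01, 2, 3 and 1 when each list was cut to 25096 peaks, 2, 3 and 1 in windows of 10 kb, and 5, 5 and 4 in windows of 100 kb, so only Lmx1b kept a distal peak at FDR below 0.01. Distal peaks numbered 9, 15 and 21 at FDR below 0.05, 4, 12 and 12 at FDR below 0.01, 21, 16 and 19 in lists of that equal size, 45, 40 and 38 in windows of 100 kb, and 6, 4 and 11 after peaks within 1 kb were merged, so the order of the lists by this count changed with the setting. Covered length was 10.05, 16.69 and 21.79 kb at FDR below 0.01, and 30.6, 30.7 and 50.55 kb in windows of 100 kb. Coverage was largest in Shh-/-;Gli3-/- buds under each of these alternatives. The causes of these shifts were not tested, and small peaks of the WT list, where 60.8% of peaks had an FDR below 0.05 against 72.4% and 83.4% in the mutant lists, are the least certain.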
